A study of Mus musculus with 4 samples.

Results

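Transcripts of the Mediator complex and its kinase module were compared between mouse germinal vesicle (GV) oocytes of 2 chromatin configurations. Members were chosen by symbol alone, as every listed gene called Med plus digits, with or without a final l, together with Cdk8, Cdk19 and Ccnc. The rule took 33 of the 16861 genes listed in each library, 26 of them encoding the core complex and 7 the kinase module. The oocytes came from antral follicles of 3-week-old female C57BL/6J mice, were stripped of their cumulus cells, and were sorted by Hoechst staining in medium with milrinone, a phosphodiesterase inhibitor that holds oocytes in GV arrest. The groups are named for the nucleolus, which compact chromatin encloses in surrounded nucleolus (SN) oocytes and leaves free in non-surrounded nucleolus (NSN) oocytes. The groups shared strain, age, sex and handling, and the labels name no genetic change or treatment in either. Each group had 2 Smart-seq2 libraries, and each library pooled 15 oocytes freed of the zona pellucida. Nothing ties the replicates of a group to separate animals, so the p-values measure only the spread between these libraries, which may be technical.

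Mediator is the coactivator that carries signals from DNA-bound transcription factors to RNA polymerase II. Its head and middle modules touch the polymerase, its tail module receives the activators, and Med14 runs through the complex as a backbone. The kinase module, made of a cyclin-dependent kinase, cyclin C, Med12 and Med13 or their paralogues, binds the core reversibly, and the polymerase cannot occupy the core while it is bound. In the mouse, growing oocytes transcribe actively and store mRNA, and global transcription stops as the chromatin takes the SN form.

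The 4 libraries were of like depth. Recovered from the deposited values, the totals came to 17408945 and 17911559 read pairs for the NSN replicates and to 17069772 and 17998361 for the SN replicates. Expression is given as FPKM, in which read pairs are divided by transcript length and by the library's total. That division assumes even coverage of long and short transcripts, which was not tested in these oligo(dT)-primed, amplified libraries. At these totals, 3 read pairs on a gene of 1 kilobase amounted to an FPKM of 0.167 to 0.176, a floor that covers counting error only because amplified read pairs are not independent molecules. FPKM are shares of a library, so fewer transcripts per oocyte and fewer contributing cells cannot be told apart from them. In the NSN libraries 40.9% and 39.8% of all read pairs fell on the 100 most abundant genes, against 36.4% and 36.5% in SN libraries.

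Marker genes matched the labelled cell type. All 12 oocyte markers were listed, and their summed FPKM was 22841 and 21580 in the NSN libraries against 15675 and 14928 in SN libraries. Limma called 9 of these markers, all lower in SN oocytes, where 1.98% of all genes were called lower. Without NSN replicate 1 limma called 0 genes of any kind, but the log2 fold changes of these 9 stayed negative whichever library was left out. Gdf9, an oocyte growth factor, fell from 5239 and 4929 FPKM to 2575 and 2289. Zp3, a zona pellucida protein and the most abundant marker, went from 7281 and 7063 to 5425 and 5208 FPKM. By contrast, 10 of 19 granulosa and cumulus cell markers were listed, with a summed FPKM of 9.62 and 14.0 in NSN and of 14.2 and 14.0 in SN libraries. The most abundant of them was Cyp19a1, the aromatase, at a mean of 7.62 FPKM, while Amh, Amhr2, Foxl2, Inhbb, Fst, Nr5a1, Ptx3, Tnfaip6 and Cd44 were not among the genes listed. Markers of theca, stroma, endothelium and blood were listed for 4 of 11 genes, led by the endothelial gene Pecam1, with summed FPKM of 5.62 and 6.96 in NSN and 7.52 and 7.11 in SN libraries. Limma called 0 of the 4 granulosa and 0 of the 2 theca, stroma and blood markers tested (7.93% of all genes). At an unadjusted p under 0.05 there were 0 and 1 of them (31.7% of all genes). The 1 was Dcn, a stromal proteoglycan, at 0.829 and 1.76 FPKM in NSN and 2.72 and 2.18 in SN libraries (log2 fold change 0.76, SE 0.27, limma adjusted p = 0.11), and it was called higher in 2 of 15 alternatives, voom on read pairs among them (adjusted p = 0.045). With single libraries left out, the log2 fold change of Dcn ran from 0.38 to 1.14. The part that the lower oocyte markers, Dcn or the smaller share of the 100 most abundant genes, had in the differences described here was not tested.

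Mediator transcripts were detected over a wide range of abundance. Mean FPKM over the 4 libraries ran from 0.0640 for Cdk19, which rests on 5 to 10 read pairs a library, to 656 for Med27. The same 8 genes were the most abundant members in every library, namely Med27, Med28, Med30, Med10, Med6, Med17, Med21 and Med4, and together they made up 87.7% of the summed mean FPKM of the members. The median member lay above 77.4% of the listed genes. At the other end, 9 of 33 members had a mean FPKM under 5, among them the backbone subunit Med14 and the largest proteins of the kinase module.

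**Figure D1:**
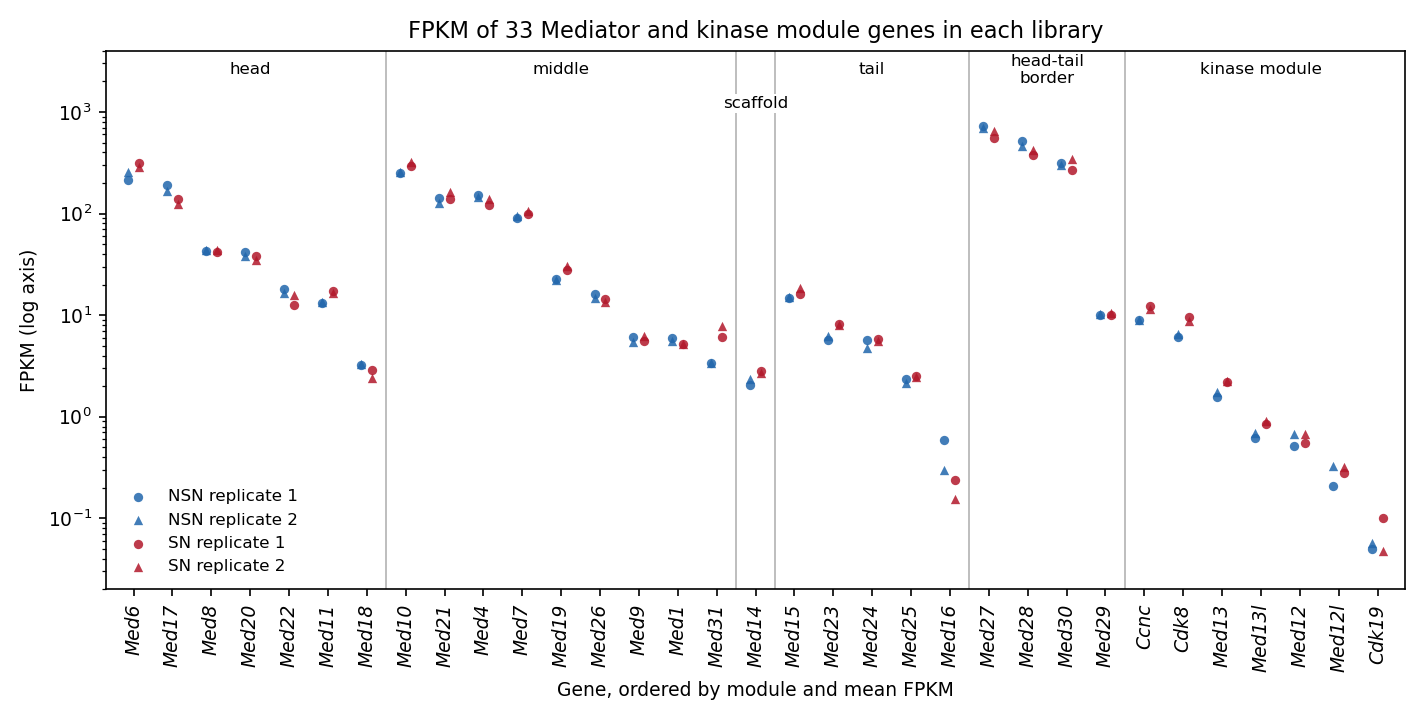
FPKM of the 33 Mediator and kinase module genes in each library, on a log axis, with genes ordered by module and by mean FPKM; blue points are the 2 NSN and red points the 2 SN libraries, circles replicate 1 and triangles replicate 2. The border subunit Med27 lies highest, at 557 to 728 FPKM, and the kinase Cdk19 lowest, at 0.0478 to 0.101 FPKM.

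Longer transcripts had lower FPKM among the members, a measure with length in its divisor. The part that length-dependent coverage had in this was not tested. Spearman's correlation of mean FPKM with transcript length was -0.62 over the 33 members and -0.11 over 16843 listed genes, and -0.57 over the 30 members and -0.08 over 11661 genes past the filter on low values, as a description over genes that share libraries and are not independent. All 8 members of at least 5000 bases had a mean FPKM of 7.01 or less, the highest being Med23, a tail subunit. The long transcripts were those of Med1, Med12, Med12l, Med13, Med13l, Med14, Med23 and Cdk19.

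SN and NSN oocytes were compared as log2(FPKM + 0.5), a scale on which changes of low genes look smaller than they are. The fit covered 11672 genes, those whose FPKM averaged 0.5 or more. To be called, a gene needed a fold change of 1.2 or more and a limma adjusted p under 0.05. Of the 33 members, 30 passed the filter, and Med16, Med12l and Cdk19 did not. Med31 rose and Med17 fell in SN oocytes, and the other 28 members tested were not called. These 2 of 30 members (6.67%) stood against 926 of 11672 genes (7.93%); by direction, 1 member was called higher where 5.95% of all genes were, and 1 lower where 1.98% were. A share so close to that of all genes is no result about Mediator. At an unadjusted p under 0.05 there were 11 members (36.7%), 8 higher and 3 lower in SN oocytes, beside 3695 of all genes (31.7%), 2777 higher and 918 lower. Both SN libraries lay outside the range of both NSN libraries for 23 of 30 members, against 62.6% of all genes, 14 of them higher (44.8% of all genes) and 9 lower (17.8%). An exact permutation test of 2 against 2 libraries cannot give a two-sided p under 0.333, so none was used.

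The balance of directions among the members depended on the scaling of the libraries. With FPKM as deposited, the median log2 fold change was 0.12 over the 30 members and 0.14 over all genes, and 63.3% of members and 66.7% of all genes were higher in SN oocytes. Scaling the libraries to a common median moved the median of all genes by -0.13, and the median of the members then stood at -0.02 with 40% of them higher, beside 50.6% of all genes. Med7, Med9, Med12, Med21, Med24, Med25 and Med29, all at 0.15 or less before, turned negative, and the other members tested kept their direction. Genes called were 695 higher and 231 lower with FPKM as deposited, and 78 higher and 179 lower with the common median, Med31 and Med17 not among them. Voom, which weights the recovered read pairs by their precision, called 10 of 30 members beside 19.7% of all genes, and with a common median 5 of 30 beside 14.7%, Med31 and Med17 among both. A correction for transcript length left 0 calls and a median of -0.01 over the members, with Med31 at 0.80 (limma adjusted p = 0.052) and Med17 at -0.55 (limma adjusted p = 0.058), and it moved the long transcripts of Med1, Med12, Med13, Med13l and Med14 most. The summed FPKM of the 33 members was 2831 and 2726 in NSN and 2553 and 2790 in SN libraries, so the groups overlapped. Among the 8 members of at least 100 FPKM, 3 were higher in SN oocytes with FPKM as deposited, beside 54.3% of all 654 genes at that level.

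**Figure D2:**
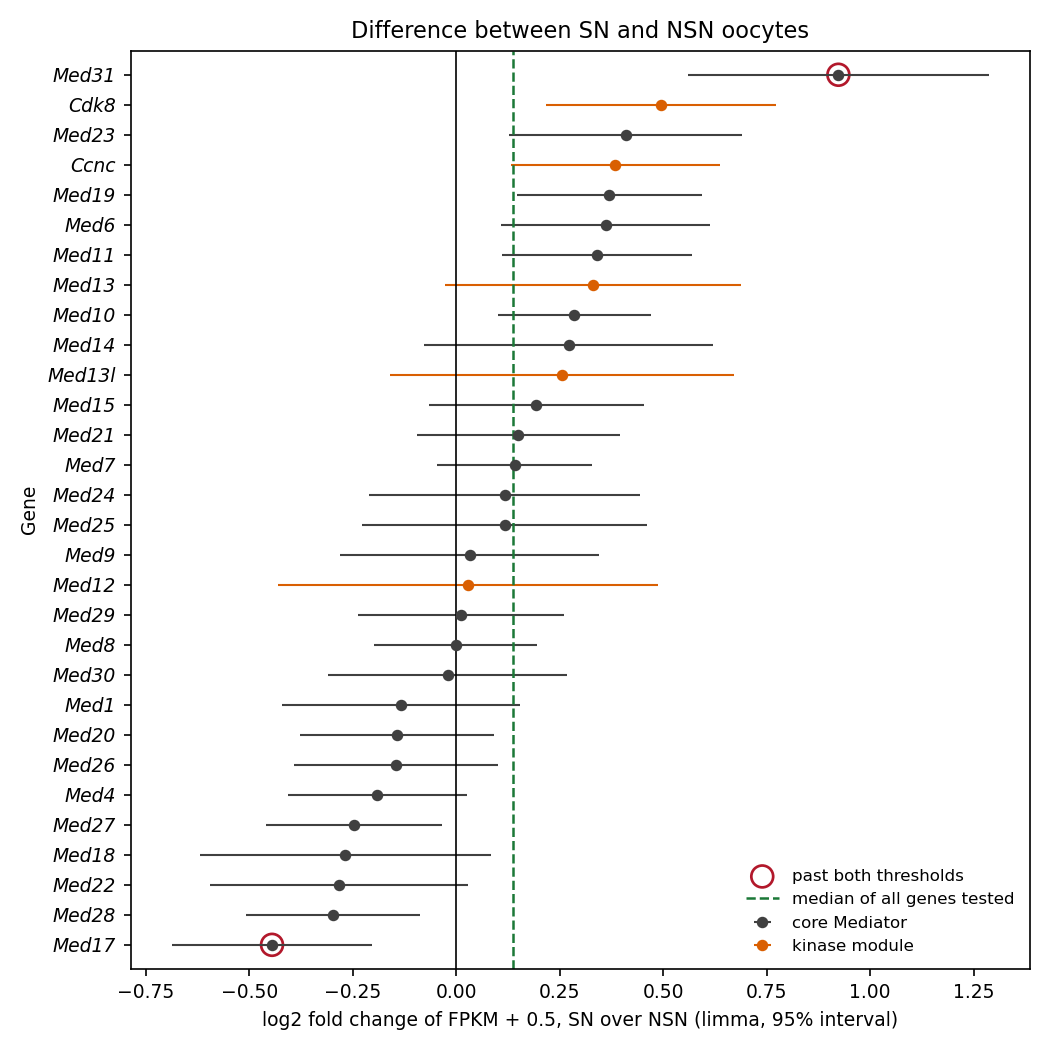
Log2 fold change of FPKM + 0.5 from NSN to SN oocytes for the 30 members tested, with the 95% interval from limma (2 libraries per group); the dashed line marks the median of all genes tested, 0.14, which moves to 0.0051 when libraries are scaled to a common median. Med31 (0.92) and Med17 (-0.45) are circled as past both thresholds, and the 5 kinase module members, in orange, run from 0.03 to 0.49, where scaling to a common median turns Med12 to -0.06.

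Med31, a small conserved subunit of the middle module, showed the largest difference among the members tested. Its FPKM was 3.36 and 3.41 in NSN libraries against 6.06 and 7.80 in SN libraries, from 68, 71, 120 and 163 read pairs. Both SN libraries lay well above both NSN libraries, and SN replicate 2 was the highest. Group means were 3.39 ± 0.035 and 6.93 ± 1.23 (SD, n = 2 each), a ratio of 2.04, and the log2 fold change was 0.92 (SE 0.15, 95% interval 0.56 to 1.29; limma adjusted p = 0.036). With a common median the log2 fold change was 0.78 (limma adjusted p = 0.056). Leaving out NSN replicate 1 or SN replicate 2 ended the call, as it ended most or all calls in the data, at log2 fold changes of 0.91 and 0.75. Over the 16 alternatives the adjusted p ran from 0.0071 to 0.10, and 8 of them kept it under 0.05. The gene lies on chromosome 11 from 72102548 to 72106453 on the minus strand of GRCm39. In a later GENCODE annotation, 31.3% of its 1927 exonic bases also belong to exons of other genes, 4930563E22Rik the most. The FPKM of Med31 rest on a length of 1161 bases. How much of that length is shared was not tested, here or for the other genes given such a share. Because counting ignored strand, reads of a part shared with another gene cannot be assigned to either.

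The remaining middle subunits ran from -0.19 to 0.37 on the log2 scale. Med10, a small subunit and the most abundant of the module, had 250.5 and 253.9 FPKM in NSN libraries and 293.6 and 322.1 in SN libraries. Its groups did not overlap, yet the log2 fold change of 0.29 (SE 0.08) was not called (limma adjusted p = 0.067). Med19, of the same module, was at 22.7 and 22.3 FPKM in NSN and 27.9 and 30.6 in SN libraries. The groups were again apart, with a log2 fold change of 0.37 that was not called (limma adjusted p = 0.059). In the later annotation, 48.7% of the 3745 exonic bases of Med19 are shared with other genes, Zdhhc5 the most. The FPKM of Med19 rest on 2059 bases. Zdhhc5 itself stayed between 2.50 and 2.68 FPKM, and the part of shared bases in the Med19 values was not tested. Med1, through which nuclear receptors reach the complex, stood at 5.98 and 5.53 FPKM in NSN and 5.20 and 5.21 in SN libraries. Its SN values were the lower ones, but the difference of -0.13 was not called (SE 0.12, limma adjusted p = 0.48), nor was that of -0.37 after the length correction (limma adjusted p = 0.12). Med26, which couples the complex to elongation factors, stood at -0.14 with FPKM as deposited (limma adjusted p = 0.37). Med4 lay lowest of the module at -0.19 (limma adjusted p = 0.20), and ran from -0.28 to -0.096 with single libraries left out. Its groups were apart, with 153.1 and 144.9 FPKM in NSN and 122.2 and 139.3 in SN libraries. Med7 and Med21, partners in the hinge of the middle module, came to 0.14 and 0.15, and Med9 to 0.03. Of the 9 middle members, 1 was called (7.93% of all genes), 4 had SN libraries above and 3 below both NSN libraries (44.8% and 17.8% of all genes), and the summed FPKM was 692 and 673 in NSN and 714 and 792 in SN libraries.

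Med17, the central subunit of the head module, was the only member called lower. Its FPKM was 191.9 and 165.6 in NSN libraries against 138.4 and 123.7 in SN libraries, from 13240, 11757, 9362 and 8822 read pairs. The groups did not overlap, and each SN library lay below each NSN library. Group means were 178.7 ± 18.6 and 131.0 ± 10.4 (SD, n = 2 each), 1.36 times higher in NSN, and expression fell by 0.45 on the log2 scale (SE 0.10; limma adjusted p = 0.049). The call was marginal: it was lost with a pseudocount of 0.1 (limma adjusted p = 0.052) and with a common median (log2 fold change -0.60, limma adjusted p = 0.057). Without NSN replicate 1, SN replicate 1 or SN replicate 2 the call was also lost, as were most or all calls in the data. The log2 fold change was then -0.34, -0.53 and -0.36. The adjusted p ran from 0.0038 to 0.17 over the 16 alternatives, and 6 of them made the call. Med17 lies on chromosome 9 from 15171258 to 15191253 on the minus strand, and none of its exonic bases are shared with another annotated gene.

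Within the head module, values did not share a direction. Med6, at the joint of head and middle, was the most abundant head subunit, at 213.2 and 254.2 FPKM in NSN and 315.1 and 284.0 in SN libraries. Both SN values exceeded both NSN values, although the NSN libraries themselves stood far apart, and the log2 fold change of 0.36 (SE 0.11) was not called (limma adjusted p = 0.078). Med11 reached 0.34 (limma adjusted p = 0.072). In the later annotation, 44.0% of its 5031 exonic bases are shared with other genes, Cxcl16 the most. The FPKM of Med11 rest on only 932 bases, so that share does not describe the bases counted. Med8 was nearly level, at 42.6 and 43.4 FPKM in NSN and 42.0 and 43.9 in SN libraries, and its 95% interval reached from -0.20 to 0.20. Med18 and Med20, which pair in the movable jaw of the head, came to -0.27 and -0.14, and Med22, the partner of Med11, to -0.28, none of them called. Of 7 head members, 2 had SN libraries above and 4 below both NSN libraries (44.8% and 17.8% of all genes), and the median log2 fold change was -0.14.

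Med14, the backbone that joins head, middle and tail, was among the members of lower FPKM. It was measured at 2.06 and 2.33 FPKM in NSN and 2.84 and 2.66 in SN libraries, from 300, 349, 405 and 401 read pairs. The groups were apart, but the log2 fold change of 0.27 (SE 0.15) was not called (limma adjusted p = 0.25) and came to 0.028 after the length correction. Med27 exceeded Med14 by 353 and 298 times in NSN and by 196 and 242 times in SN libraries, on the FPKM scale.

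The tail subunits, which bind activators, were of low to moderate abundance. Med15, the target of sterol-regulated factors and the most abundant of the module, had 14.6 and 15.2 FPKM in NSN and 16.0 and 18.4 in SN libraries. Its SN values were higher without overlap, and the log2 fold change of 0.19 was not called (limma adjusted p = 0.26). That log2 fold change came to 0.096 without SN replicate 2 and to 0.29 without SN replicate 1. Med23, through which Elk1 and other factors act, went from 5.65 and 6.26 FPKM in NSN to 8.20 and 7.92 in SN libraries. That gap, 0.41 on the log2 scale (SE 0.12), was the widest of the 4 tail members past the filter but was not called either (limma adjusted p = 0.075). Med24 and Med25 both came to 0.12. Med16 was under the filter, with FPKM of 0.592 and 0.297 in NSN and 0.238 and 0.156 in SN libraries, from 33, 17, 13 and 9 read pairs. The SN libraries were the lower ones, at a depth where the NSN replicates already differed by a wide margin. With all listed genes tested, its log2 fold change was -0.42 and was not called (limma adjusted p = 0.23). Limma called 0 of the 4 tail members tested (7.93% of all genes), 1 of which had an unadjusted p under 0.05 (31.7% of all genes).

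The subunits between head and tail held the most abundant transcripts of the complex. Med27, at 24.1% of the summed mean FPKM of all members, had 727.7 and 693.7 FPKM in NSN and 557.2 and 643.7 in SN libraries. The SN values were the lower ones without overlap, SN replicate 1 the farthest. The log2 fold change was -0.25 (SE 0.09) and was not called (limma adjusted p = 0.12). It was -0.14 without SN replicate 1 and -0.35 without SN replicate 2. Med28 stood at 512 and 464 FPKM in NSN and 376 and 418 in SN libraries, a difference of -0.30 on the log2 scale (limma adjusted p = 0.079), and its groups were likewise apart. Med30 and Med29, of the same border, overlapped between the groups, with log2 fold changes of -0.02 and 0.01. Summed over the 4 genes, FPKM was 1565 and 1468 in NSN and 1211 and 1416 in SN libraries. Limma called 0 of 4 (7.93% of all genes), with 2 at an unadjusted p under 0.05 (31.7% of all genes). Voom on read pairs called Med28 (19.7% of all genes), and voom with a common median both Med27 and Med28 (14.7%), all lower in SN oocytes.

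The kinase module had low FPKM beside the core. Its 7 transcripts summed to 18.1 and 18.9 FPKM in NSN and 25.8 and 24.3 in SN libraries, and Ccnc supplied 47.9% of the mean. In all 4 libraries the order was Ccnc, Cdk8, Med13, Med13l, Med12, Med12l and Cdk19. Limma called 0 of the 5 members tested (7.93% of all genes), 2 were at an unadjusted p under 0.05 (31.7% of all genes), voom on read pairs called 3, namely Ccnc, Cdk8 and Med13 (19.7% of all genes), and voom with a common median called 0. Of the 5, 4 had both SN libraries above both NSN libraries, as had 44.8% of all genes, and the median log2 fold change was 0.33, beside 0.03 for the 25 core members tested and 0.14 for all genes. After the length correction the median of the 5 was 0.063, and Med12 turned to -0.19, as it turned to -0.06 with a common median. The difference between the modules was not tested.

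Cdk8, the kinase itself, had 6.09 and 6.49 FPKM in NSN and 9.48 and 8.65 in SN libraries, from 319, 350, 487 and 469 read pairs. The replicates of each group lay close together and the groups were well apart. Group means were 6.29 ± 0.29 and 9.06 ± 0.58 (SD, n = 2 each), and the log2 fold change was 0.49 (SE 0.12, 95% interval 0.22 to 0.77; limma adjusted p = 0.052), just short of the threshold. It passed in 3 of 16 alternatives, among them without NSN replicate 2 (0.54, limma adjusted p = 0.047), over a range of adjusted p from 0.014 to 0.18; with a common median the log2 fold change was 0.35 (limma adjusted p = 0.10). The gene lies on chromosome 5 from 146167823 to 146241320 on the plus strand.

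Ccnc encodes cyclin C, which activates the kinase. Its FPKM was 9.05 and 8.90 in NSN and 12.3 and 11.4 in SN libraries, from 688, 696, 919 and 898 read pairs. As with Cdk8, both SN libraries were above both NSN libraries. The log2 fold change was 0.38 (SE 0.11) and was not called (limma adjusted p = 0.069). Ccnc exceeded Cdk8 by 1.49 and 1.37 times in NSN and by 1.3 and 1.32 times in SN libraries. Both SN ratios were the lower ones, but the gap between the groups was narrower than that between the NSN replicates. The difference was not tested.

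Med13 and Med13l encode the link between the kinase module and the core. Med13 was at 1.58 and 1.77 FPKM in NSN and 2.22 and 2.24 in SN libraries, and Med13l at 0.622 and 0.695 in NSN and 0.855 and 0.912 in SN libraries. For both genes the groups were apart with SN higher. The log2 fold changes were 0.33 (SE 0.15, limma adjusted p = 0.18) for Med13 and 0.26 (SE 0.17, limma adjusted p = 0.35) for Med13l, neither of them called. After the length correction they came to 0.063 for Med13 and 0.0024 for Med13l. Their ratio was steady, Med13 being 2.54 and 2.55 times Med13l in NSN and 2.59 and 2.46 times in SN libraries.

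Med12 is the subunit that activates the kinase through cyclin C. It had 0.513 and 0.672 FPKM in NSN and 0.548 and 0.677 in SN libraries, from 63, 85, 66 and 86 read pairs. The groups overlapped, and the replicates of a group differed more than the group means. The log2 fold change was 0.03 with a 95% interval of -0.43 to 0.49 (limma adjusted p = 0.94), an interval that takes in the values of Ccnc, Med13 and Med13l and nearly reaches that of Cdk8. In the later annotation, 18.8% of the 9205 exonic bases of Med12 are shared with other genes, Gm21986 the most. The FPKM of Med12 rest on 7060 bases. Its paralogue Med12l, under the filter, was at 0.207 and 0.330 FPKM in NSN and 0.276 and 0.320 in SN libraries, from 45, 74, 59 and 72 read pairs. Again the groups overlapped. Med12 was 2.48 and 2.03 times Med12l in NSN and 1.98 and 2.11 times in SN libraries.

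Cdk19, the paralogue of Cdk8, was barely detected. FPKM was 0.0495 and 0.0577 in NSN and 0.101 and 0.0478 in SN libraries, from 5, 6, 10 and 5 read pairs over 5807 bases. The groups overlapped, SN replicate 1 alone standing higher, and no difference was detectable at this depth. Cdk8 exceeded Cdk19 by 123 and 113 times in NSN and by 93.9 and 181 times in SN libraries, ratios that rest on the few Cdk19 read pairs.

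Genes that work with Mediator were read from 3 lists, each of which held 1 call, where 7.93% of all genes tested were called. Of 12 RNA polymerase II subunit genes, 11 were tested and 1 was called, Polr2k, a small subunit shared by all nuclear polymerases, at 10.7 and 16.3 FPKM in NSN and 27.3 and 23.1 in SN libraries. Its SN libraries were both higher (log2 fold change 0.90, SE 0.20, limma adjusted p = 0.046). Like Mediator, the polymerase showed a wide spread of levels, from Polr2d at a mean of 549 FPKM to Polr2a, the catalytic subunit, at 0.256 to 0.445 FPKM in the 4 libraries and untested. Among 12 genes of the other transcriptional kinases and their cyclins, all tested, limma called Cdk11b, a kinase tied to splicing. It rose from 20.2 and 21.1 to 27.4 and 27.2 FPKM (log2 fold change 0.39, SE 0.09, limma adjusted p = 0.048). The most abundant of that list was Cdk7, the kinase of the general factor TFIIH, at a mean of 46.5 FPKM.

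Of 24 genes for factors that bind Mediator, 23 were listed and 17 tested, and Nipbl, the cohesin loader, was the 1 called. Its FPKM was 4.62 and 5.76 in NSN and 9.31 and 8.61 in SN libraries (log2 fold change 0.74, SE 0.14, limma adjusted p = 0.040). Both SN libraries were above both NSN libraries. Esr2, a nuclear oestrogen receptor, was the most abundant of the list at a mean of 27.9 FPKM. The calls of Polr2k, Cdk11b and Nipbl were each lost by limma when FPKM were scaled to a common median, at log2 fold changes of 0.75, 0.24 and 0.60, whereas voom with a common median called Polr2k (adjusted p = 0.020) and Nipbl (adjusted p = 0.0041). They were also lost without NSN replicate 1, SN replicate 1 or SN replicate 2, as were most or all calls in the data. Over the 16 alternatives they were made in 6, 4 and 6. When single libraries were left out, the log2 fold changes were 0.61 to 1.2, 0.37 to 0.42 and 0.59 to 0.88.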

How the data were processed

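RNA from 4 pools of 15 oocytes, 2 NSN and 2 SN, was sequenced by Smart-seq2. Per the study's methods and the submitters' processing notes, the authors trimmed reads with Trim Galore 0.6.10, aligned them to GRCm39 with HISAT2, counted primary read pairs on GENCODE exons with featureCounts without strand, and deposited FPKM from their own program. The authors used DESeq2 on counts; here only FPKM were used. Library totals were recovered from 5 mitochondrial tRNA genes, and whole read pairs, within a relative tolerance of 1e-07, for 16843 of 16861 genes (99.9%). The length of 278 genes, 1 member (Med15) among them, was raised to the smallest multiple reaching the longest annotated coding length, so their read pairs are the fewest that length allows. Coordinates and shared exons came from a later GENCODE release on the same build, in which 97.8% of the symbols occur once.

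Differences in log2(FPKM + 0.5) were tested with limma 3.58.1 in R 4.3.3 (eBayes with trend, two-sided), adjusted by Benjamini-Hochberg over 11672 genes. Python 3.11.15 with pandas 2.3.3, numpy 2.4.6, scipy 1.17.1 and matplotlib 3.10.9 served for the remaining values and the plots. Full values are given for kinase module members, called members, the most abundant member of each module, Med14 and members under the filter; other genes were named after their values were seen. Members, lists and tests were chosen with earlier results of these data known. Alternatives were other pseudocounts and filters, median and quantile scaling, no variance trend, a replicate block, a loess correction for length (span 0.3), voom on read pairs, and each library left out.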

Additional observations from a re-analysis of the deposited data

How the results depend on the processing

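Over the 30 members and the 12 alternatives that keep every library, 293 values kept direction and side of the threshold, 13 lost the call, 19 gained it and 29 changed sign; the cause was not tested. Alternatives with no call cannot show a result as stable. Neither Med31 nor Med17 was called under all 16 alternatives. Depth limits Cdk19, Med16, Med12l and Med12 most, at 5 to 86 read pairs a library. Counts are given in the order genes, members, kinase module, core, Pol II subunits, other transcriptional kinases and cyclins, and Mediator partners.

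With all 16861 genes tested, limma called 0 genes, so 0 in each list, with 4092 genes and 11 members at an unadjusted p under 0.05, and the members' median log2 fold change was 0.059 over 33. Without the variance trend it called 0 in each (3449 genes and 9 members at an unadjusted p under 0.05). At a mean FPKM of at least 5, where fewer genes are tested, 1496 of 5519 genes were called (27.1%; 1169 higher, 327 lower), 10 of 24 members (8 higher, 2 lower: Ccnc, Cdk8, Med6, Med10, Med11, Med19, Med23, Med31; Med17, Med28), 2 of the kinase module, 8 of the core, and 3, 2 and 3 of the other lists. With a pseudocount of 0.1, 773 of 11672 genes were called (6.62%, 582 higher and 191 lower). They held 1 member of the core, Med31, and 0 other transcriptional kinases and cyclins.

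With median scaling, 257 genes were called (78 higher, 179 lower) and 0 of each list, with 11 members at an unadjusted p under 0.05; the members' median was -0.019 and 40% were higher. Log2 fold changes changed sign for Med12 (-0.056), Med21 (-0.0042), Med24 (-0.025), Med25 (-0.011), Med29 (-0.14), Med7 (-0.013) and Med9 (-0.11). With quantile normalisation, 230 genes were called (74 higher, 156 lower) and 0 of each list, with 12 members at an unadjusted p under 0.05; the members' median was -0.0046 and 46.7% were higher. Med12 (-0.047), Med15 (-0.0020), Med24 (-0.045), Med25 (-0.0073), Med29 (-0.16), Med9 (-0.14) and Med30 (0.012) changed sign.

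The length correction gave 0 calls by limma in each list (3123 genes and 11 members at an unadjusted p under 0.05), a members' median of -0.010 and 50% higher, with Med12 (-0.19), Med25 (-0.025), Med29 (-0.10) and Med9 (-0.022) changing sign; together with the replicate block it gave 0 calls (2743 genes and 8 members at an unadjusted p under 0.05) and these same values. With the replicate block alone, 422 of 11672 genes were called (3.62%, 266 higher and 156 lower), Med31 and Med17 again, and 0 of each other list. The replicate numbers are only shared names: the replicate differences of NSN and SN libraries correlated at -0.07 over 11672 genes.

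Voom on read pairs called 2301 genes (1765 higher, 536 lower) and 10 members (8 higher, 2 lower). The members were Ccnc, Cdk8, Med6, Med10, Med13, Med19, Med23 and Med31, higher, and Med17 and Med28, lower. By list, 3 of the kinase module were called, 7 of the core, and 3, 4 and 5 of the other lists. Voom with median scaling called 1712 genes (748 higher, 964 lower), 5 members (Med31 higher; Med4, Med17, Med27, Med28 lower), 0 of the kinase module, 5 of the core, 2 Pol II subunits, 1 other kinase or cyclin (Ccnt1, lower) and 5 partners; the members' median was -0.017 and 40% were higher, and Med12 (-0.10), Med21 (-0.0027), Med24 (-0.022), Med25 (-0.010), Med29 (-0.14), Med7 (-0.013) and Med9 (-0.11) changed sign.

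With single libraries left out, the lone library of a group was assumed to vary like the others. Genes called ranged from 0 (without NSN replicate 1; 2278 at an unadjusted p under 0.05) to 1685 (without NSN replicate 2), with 148 without SN replicate 1 and 11 without SN replicate 2. Members called ranged from 0 to 4, kinase module 0 to 1, core 0 to 3, Pol II subunits 0 to 2, other transcriptional kinases and cyclins 0 to 1, and partners 0 to 2. The members' median ranged from 0.060 to 0.14 and the share higher from 53.3% to 70.0%. Ranges that crossed 0 were Med12 -0.078 to 0.13, Med24 -0.011 to 0.25, Med29 -0.030 to 0.052 and Med30 -0.20 to 0.16. Med8 (-0.033 to 0.031) and Med9 (-0.053 to 0.12) crossed 0 as well. Among ranges on 1 side of 0 were Med1 -0.18 to -0.081, Med6 0.23 to 0.49, Med18 -0.38 to -0.16 and Med20 -0.22 to -0.068. Others were Med21 0.044 to 0.26, Med22 -0.43 to -0.14, Med25 0.055 to 0.18 and Med26 -0.20 to -0.087.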
